A study of Mus musculus with 4 samples.

Results

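The report follows 10 genes of the cytosolic chaperone system in mouse hearts after myocardial infarction (MI). They are the small heat shock proteins Cryab, Hspb1, Hspb6, Hspb7 and Hspb8, the cochaperones Bag3 and Dnajb1, the inducible HSP70 genes Hspa1a and Hspa1b, and the HSP90 gene Hsp90aa1. They were chosen by symbol from the 32285 features of the deposited count files, and all 10 were found. Visium, an array of barcoded spots that each collect mRNA from the small group of cells lying above, was used on 4 heart sections. Each section came from 1 adult ICR mouse, 12 weeks old, whose left anterior descending (LAD) coronary artery had been tied off for good, and the hearts were taken on day 1, day 4, day 7 and day 14. All 4 hearts were infarcted, no section of an uninjured or sham-operated heart was analysed here, and each day is 1 mouse, so levels on different days are described and not tested. The day of the earliest section is that of its label and of the methods, and a passage of the study's text names a later day.

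Small heat shock proteins bind unfolding proteins and hold them in a form that HSP70 can refold. In heart muscle they sit on Z-discs, titin and desmin filaments, and Hspb8 acts with Bag3 to hand damaged filament proteins to autophagy. The HSP70 genes, Dnajb1 and Hsp90aa1 belong to the classical heat shock response, in which heat shock factor 1 binds repeats of GAA and TTC in their promoters when proteins unfold.

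Spots were ranked within each section by the share of their UMIs (unique molecular identifiers, 1 for each captured mRNA molecule) that came from Myh6 and Myl2, the heavy chain and a light chain of cardiac myosin. They were cut into 4 tiers of equal size, so that the lowest tier is the poorest in these 2 muscle genes and the highest the richest. No member took part in the ranking. Levels are given as CPM, the UMIs of a gene per 1000000 UMIs of the same spots. Spots with over 1% hemoglobin UMIs were left out, which kept 7503 of 9102 spots, 1679 to 2086 a section, with 9292678 to 15713779 UMIs. The median spot of the lowest tier held 6389, 6524.5, 2826 and 2329.5 UMIs on days 1, 4, 7 and 14, against 5971, 9221, 5515 and 8278 in the highest tier. The slides share one set of printed barcodes, and 1332 barcodes occurred in all 4 sections, which does not mean shared cells.

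The tiers held different tissue on different days. The 14 cardiomyocyte genes that the ranking did not use summed to 45948, 18292, 19150 and 54164 CPM in the lowest tiers of days 1, 4, 7 and 14, against 68833 to 78526 in the highest tiers. The 6 fibroblast genes gave 2159 CPM in the lowest tier of day 1, and 36227, 39057 and 8579 on days 4, 7 and 14. The lowest tier of day 1 was therefore muscle with little collagen, while those of days 4 and 7 were rich in fibroblast mRNA. That of day 14 held both muscle-rich and fibroblast-rich spots, and its values average over them. The 6 genes of stressed border muscle (Nppa, Nppb, Ankrd1, Xirp2, Acta1 and Myh7) were 2.17 to 14.6 times as high in the lowest as in the highest tier, with the largest ratio on day 1. Macrophage genes were 2.97 to 14.1 times as high, neutrophil genes 6.89 to 42.1 times and smooth muscle genes 1.95 to 11.2 times. The largest neutrophil ratio, on day 14, rests on 16 UMIs in the highest tier. The smooth muscle list was mostly Acta2 and Tagln (7156 and 3204 UMIs, beside 840 for Myh11 and 309 for Cnn1). Acta2 encodes alpha smooth muscle actin, which the study stained as a myofibroblast marker, so this range does not speak of smooth muscle alone. The sum of the endothelial genes differed least, by 1.13 to 1.73 times. Single genes of that list went both ways: in the fit across sections described below, 1 of 5 was called higher and 1 lower, with log2 fold changes from -0.62 to 0.47. The atrial list differed by 3.44 to 32.3 times, but it was nearly all Nppa, with 125017 UMIs beside 17 to 197 for its other genes. Nppa is also among the border genes, so this range does not speak of atrial tissue. Adipocyte genes reached 61.8 CPM in the lowest tier of day 1 and 45.6 on day 7, and at most 15.6 in any other tier of any section. The lowest tier of day 7 also held skeletal muscle: 10 fast skeletal muscle genes summed to 20340 CPM there and to at most 205.4 in every other tier, and 115 of its 462 spots had at least 10 such UMIs. The border genes summed to 11177 CPM in that tier, and the part of skeletal muscle in this sum and its ratio was not tested. Nor was the part of these cell types in the values below. Within a spot, fewer cells of a type and less mRNA per cell cannot be told apart.

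RefSeq promoter windows on GRCm38 (250 bases before to 50 after a start site) were given for 8 members, and Cryab and Hsp90aa1 were not among them. The 8-base motif GAANNTTC, which reads the same on both strands, was found for 6 of the 8 members, Hspb1, Hspb6, Hspb8, Bag3, Hspa1a and Hspa1b, and for 2442 of 27025 genes with a window, or 9.04%. The reverse arrangement TTCNNGAA, also the same on both strands, was found for no member and for 9.6% of all genes, and GAANNTTC with a further NNGAA at its end, searched on both strands and containing both shorter motifs, for no member and 0.662% of all genes. Of the other cytosolic chaperones 7 of 28 held GAANNTTC, and of the cardiomyocyte genes 0 of 12. The stretches below are shown because they hold the motif (capitals) in the members described next. The first 3 lie upstream of the start site, and the last 2 are 30-base stretches at or just after it.
Hspb1, chr5:135887782-135887849, plus strand: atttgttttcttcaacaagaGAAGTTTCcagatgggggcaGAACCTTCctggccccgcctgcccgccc
Hspa1a, chr17:34972233-34972280, minus strand: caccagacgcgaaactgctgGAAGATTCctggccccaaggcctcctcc
Hspa1b, chr17:34959315-34959362, minus strand: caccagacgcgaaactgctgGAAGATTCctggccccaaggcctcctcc
Hspb8, chr5:116422844-116422873, minus strand: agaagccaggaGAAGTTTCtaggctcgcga
Bag3, chr7:128523603-128523632, plus strand: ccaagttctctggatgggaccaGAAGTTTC
Hspb1 held 2 copies, whose first bases lie at positions -117 and -97 from the start site. In both HSP70 genes the single copy starts at -104, and the 250 bases before their start sites differ at 3 positions. In Hspb8 it starts at position 3 and in Bag3 at position 43, counted from the RefSeq start site, and in Hspb6 at -120 from the second of its 2 start sites. The gene position of Bag3 given below starts further downstream, at 128523616, within the printed stretch. No match in Hspb7 or Dnajb1 says only that these letters are not in their windows, and a match is a description of the sequence, not a bound site.

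Cryab, the most studied small heat shock protein of heart and lens and a chaperone of desmin, had by far its highest level in the lowest tier of day 1. Its gene lies at chr9:50751325-50756636 on GRCm38. From the lowest to the highest tier it measured 10075, 4244, 2345 and 2560 CPM on day 1. On day 4 the same tiers gave 1878, 2072, 1997 and 2244. On day 7 they gave 901.2, 1992, 2372 and 2499, and on day 14 1966, 2334, 2409 and 2384. The order of the tiers thus turned between sections: the lowest tier was the highest on day 1 and the lowest on each of the other 3 days. The ratio of lowest over highest tier was 3.94 on day 1 (log2 1.98, 95% interval 1.94 to 2.01), and on the other days its log2 value was -0.26, -1.47 and -0.28. All intervals of counts and ratios here cover counting error only. The lowest tier of day 1 held 49.6% of the section's Cryab UMIs, with a median of 54 a spot against 15.5 in the highest tier, at a similar depth. In contrast, the highest tiers of the 4 days lay between 2244 and 2560 CPM.

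Finer bins showed where Cryab peaked. With each section cut into 20 bins of 83 to 105 spots, Cryab fell on day 1 from 12707 CPM in the bin poorest in Myh6 and Myl2 to 2287 in bin 10, and stayed between 2303 and 2772 from bin 11 on. On day 4 it was only 442.7 in bin 1, rose to 3473 in bin 5 and returned to 1865 in bin 9. Bins 1 to 5 make up the lowest tier, whose day 4 value therefore averages over this low and this peak. The cardiomyocyte genes summed to 4267 CPM in bin 1 of day 4 and to 36675 in bin 5, while the border genes rose from 2156 to 32902. The 2 profiles then parted: the border genes stood at 35134 and 34964 in bins 6 and 7, where Cryab was down to 2712 and 2018. On day 7 and day 14 no such peak was seen, and Cryab climbed from 781.5 in bin 2 to 2571 in bin 17 on day 7 and from 346.2 in bin 1 to 2485 in bin 12 on day 14. The lowest 2 bins of days 4, 7 and 14 had the least Cryab of their sections, and their fibroblast genes stood at 34703 to 44335 CPM. On day 7 these bins also had the most fast skeletal muscle mRNA (27247 and 26124 CPM). The fibroblast genes of day 7 were highest in bin 4 (45128), with Cryab at 856.2. The part of these cell types in the Cryab values was not tested.

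Hspb1, known in humans as HSP27, a small heat shock protein that binds actin and desmin filaments, showed the steepest day 1 difference of the 5 small heat shock genes. It lies at chr5:135887919-135889563. Its level on day 1 was 3383 CPM in the lowest tier, 1060 in the second, 293.6 in the third and 326.5 in the highest. On day 4 it was 610.5, 404.9, 327.1 and 387.7, on day 7 317.6, 453.9, 463.2 and 501.4, and on day 14 256.7, 252.7, 236.5 and 256.2. The lowest tier was thus 10.4 times the highest on day 1 (log2 3.37, interval 3.28 to 3.47) and 1.57 times on day 4. On day 7 it was lower (log2 -0.66), and on day 14 the tiers did not differ beyond counting error (log2 0.00, interval -0.15 to 0.15). The lowest tier of day 1 held 64.3% of all Hspb1 UMIs of that section. In bins, Hspb1 peaked at 4375 CPM in bin 2 of day 1 and at 925.1 in bin 4 of day 4, next to the bin where Cryab peaked. Within the lowest tier of day 14, Hspb1 measured 170.1, 170.4 and 324.1 CPM in bins 1, 2 and 3, from 29, 23 and 55 UMIs. In bins 4 and 5 of that tier it measured 294.9 and 243.9. Across single spots, Cryab and Hspb1 shares were ranked alike on day 1 (Spearman's rho 0.70 over 1890 spots that share a library) and less so on days 4, 7 and 14 (0.29, 0.26 and 0.19).

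**Figure D1:**
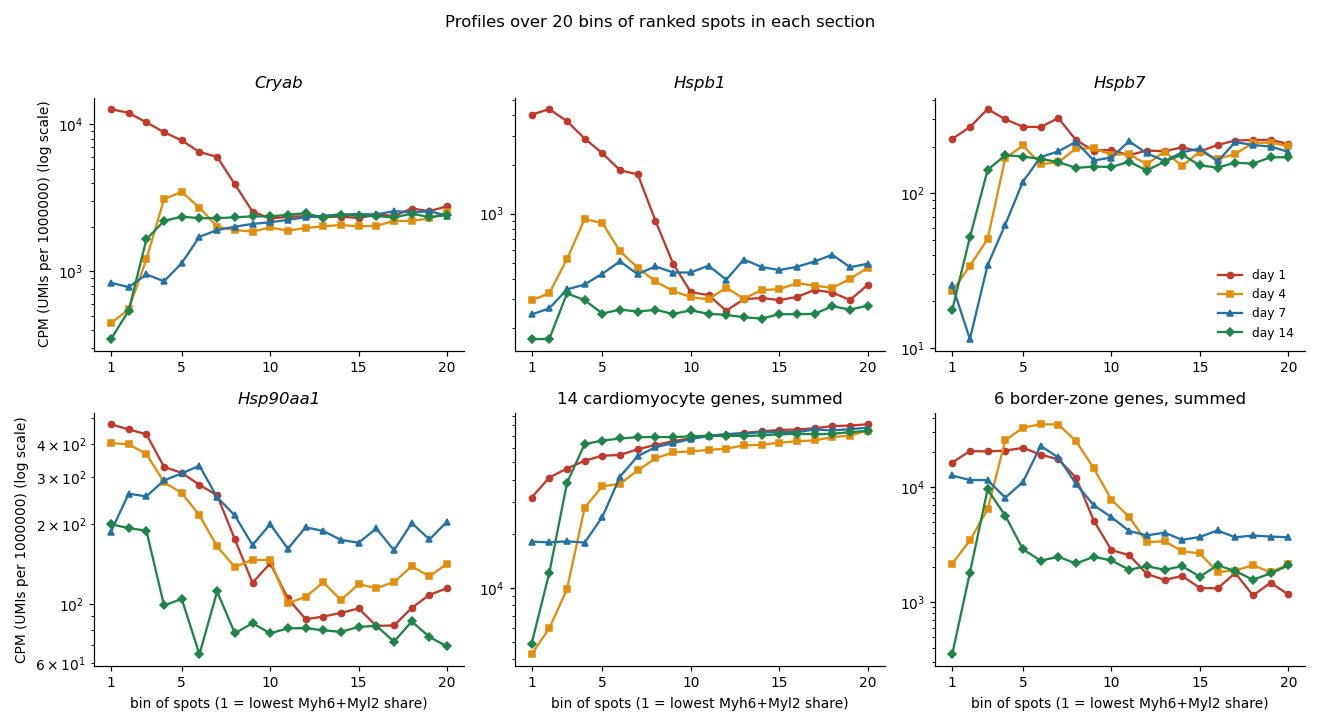
CPM (log scale) in 20 bins of spots ranked by the Myh6 and Myl2 share, 1 line a section, for Cryab, Hspb1, Hspb7, Hsp90aa1 and the summed cardiomyocyte and border genes. Cryab and Hspb1 were highest in the lowest bins on day 1 (12707 and 4375) and in bins 5 and 4 on day 4 (3473 and 925.1), while Hspb7 fell to 11.4 in bin 2 of day 7.

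Hspb6 and Hspb7, small heat shock proteins abundant in striated muscle, differed less between the tiers of day 1 than Cryab and Hspb1 did. Hspb6 (chr7:30552178-30555443) measured 860.5, 891.6, 722 and 699 CPM from the lowest to the highest tier of day 1. It measured 211, 484.5, 485.7 and 545.5 on day 4, 293.8, 524.5, 531.5 and 579 on day 7, and 649.7, 730.3, 744.3 and 709.9 on day 14. The lowest tier was 1.23 times the highest on day 1 and below it on days 4, 7 and 14, by log2 -1.37, -0.98 and -0.13. Its level over all kept spots was 791.4 on day 1 (interval 776 to 808), 448.4 on day 4 (438 to 460), 505.2 on day 7 (491 to 520) and 718.4 on day 14 (705 to 732). Hspb7 (chr4:141420779-141425311) gave 285.7, 234.6, 187 and 215 on day 1, 103.7, 177.5, 170.6 and 193.6 on day 4, 45.6, 181.9, 187.6 and 193.1 on day 7, and 150.7, 153.5, 157.8 and 159.6 on day 14. Its lowest tier was 1.33 times the highest on day 1 (log2 0.41, interval 0.26 to 0.56), and its bins of that day reached 349.8 CPM in bin 3 against 176.1 in bin 11. In bins 1 and 2 of day 14 it measured 17.6 and 51.85 CPM, from 3 and 7 UMIs. Hspb6 measured 82.1 and 148.1 CPM in these bins, from 14 and 20 UMIs. Among tiers, Hspb7 was lowest in the lowest tier of day 7, with 67 UMIs in all and a log2 ratio of -2.08 (interval -2.47 to -1.71). Without the spots holding skeletal muscle mRNA that ratio was -1.14, and for Hspb6 it went the other way, from -0.98 to -1.64. The tiers were cut anew after those spots were removed, so other spots also moved into the lowest tier. The parts of these 2 changes were not separated.

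Hspb8 and its partner Bag3, which links small heat shock proteins to HSP70, moved in the same direction between the tiers of days 4 and 7. This likeness was not particular to the pair. Over the 80 bins described below, Pearson's r of Hspb8 and Bag3 was 0.83. It was 0.87 and 0.86 for Hspb8 with Hspb7 and Hspb6, and 0.86 and 0.77 for Bag3 with them. Hspb8 (chr5:116408491-116422864) stayed between 291.1 and 325.2 CPM in the 4 tiers of day 1. In the lowest tier it was 139.9 on day 4 and 130.6 on day 7, against 279.3 to 298.7 and 365.9 to 375.9 in the other tiers of those days. On day 14 it was 267.8 in the lowest tier and 284.3 to 293.2 in the others. Bag3 (chr7:128523616-128546981) measured 242.3, 229.4, 197.5 and 233.2 on day 1, 173.3, 231.4, 236.9 and 257.6 on day 4, 109.5, 228.9, 230.3 and 255.3 on day 7, and 160.3, 192.8, 173.7 and 182.5 on day 14. For both genes the lowest tier was lower than the highest on days 4 and 7, by log2 -1.09 and -1.49 for Hspb8 and -0.57 and -1.22 for Bag3. On days 1 and 14 the intervals of both genes' ratios included no difference or touched it. The lowest tier of day 14 mixed tissue: its fibroblast genes stood at 40471 CPM in bin 1 and at 1139 in bin 5. In bins 1 and 2 of that day Hspb8 measured 152.5 and 51.85 CPM and Bag3 88 and 111.1, from 7 to 26 UMIs each. Their highest bins of that section reached 312.3 and 206.3. Without skeletal muscle spots, and with the tiers cut anew, the day 7 log2 ratios of Hspb8 and Bag3 were -1.19 and -0.95.

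Dnajb1, Hspa1a, Hspa1b and Hsp90aa1 measured more in the lowest than in the highest tier of all 4 sections, although not always beyond counting error. Dnajb1 (chr8:83608193-83612653), a J-domain protein that stimulates HSP70, measured 106, 50.8, 27.9 and 37.8 CPM from the lowest to the highest tier of day 1. Day 4 gave 78.3, 36.6, 27.9 and 31.9, day 7 53.7, 35.1, 31.3 and 28, and day 14 31.7, 23, 27.2 and 23.6. The lowest tier was 2.80, 2.46, 1.92 and 1.34 times the highest on days 1, 4, 7 and 14, with overlapping intervals between neighbouring days and, on day 14, one that included no difference (log2 0.43, interval -0.04 to 0.89). The lowest tier of day 14 was mixed: Dnajb1 measured 70.4, 74.07 and 53.04 CPM in its bins 1, 2 and 3, from 12, 10 and 9 UMIs. In bins 4 and 5 of that tier it measured 24.34 and 19.77.

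Hspa1a and Hspa1b, the stress-inducible HSP70 genes, were rare, with 851 and 859 UMIs in all. They lie side by side at chr17:34969190-34972156 and chr17:34956436-34959238. Their transcripts share 58.8% of the 50-base words of Hspa1a, but no such word of its last 500 bases, the end that poly(A) capture reads, occurs in Hspa1b. How reads matching both genes were treated is not given in the sources used here, nor is the use of strand. Hspa1a also shares 564 exon bases with Gm20481 on the opposite strand. How these shared bases bear on its counts is therefore not known. Hspa1a measured 88.8, 24.2, 4.91 and 7.22 CPM on day 1, 37.3, 18.7, 15.9 and 25.8 on day 4, 15, 17.3, 9.91 and 12.3 on day 7, and 3.84, 2.33, 1.28 and 2.85 on day 14. Its lowest tier was 12.3 times the highest on day 1 (243 against 21 UMIs, log2 3.62, interval 2.97 to 4.34), and 68.6% of its day 1 UMIs lay there. On days 7 and 14 the ratio was within counting error. Hspa1b measured 55.9, 27.2, 6.45 and 9.29 on day 1, 43.5, 15.6, 18 and 19.8 on day 4, 22.4, 23.1, 17.5 and 16.9 on day 7, and 10.1, 2.96, 4.26 and 2.38 on day 14. Its lowest tier was 6.02 times the highest on day 1 and 2.20 times on day 4, and on day 14 4.24 times from 21 against 10 UMIs. In the highest tiers, Hspa1a was above its day 1 level on day 4 (25.8 against 7.22, intervals 21 to 31.5 and 4.47 to 11) and at 2.85 on day 14.

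Hsp90aa1 (chr12:110690605-110702728), the inducible form of HSP90, measured 391.3, 195, 94.3 and 96.3 CPM in the 4 tiers of day 1. It gave 337.1, 159.6, 109.9 and 128 on day 4, 254.4, 228.5, 177.7 and 186.2 on day 7, and 122.8, 83.1, 80.5 and 77.3 on day 14. The lowest tier exceeded the highest by 4.06, 2.63, 1.37 and 1.59 times on days 1, 4, 7 and 14, and the interval of each ratio excluded 1. Where Cryab was low, in bin 1 of days 4 and 14, Hsp90aa1 had its highest level of the section (402.1 and 199.5 CPM). On day 7 it was 187 in bin 1 and its peak was in bin 6 (330.8), where the border genes peaked too (22807).

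**Figure D2:**
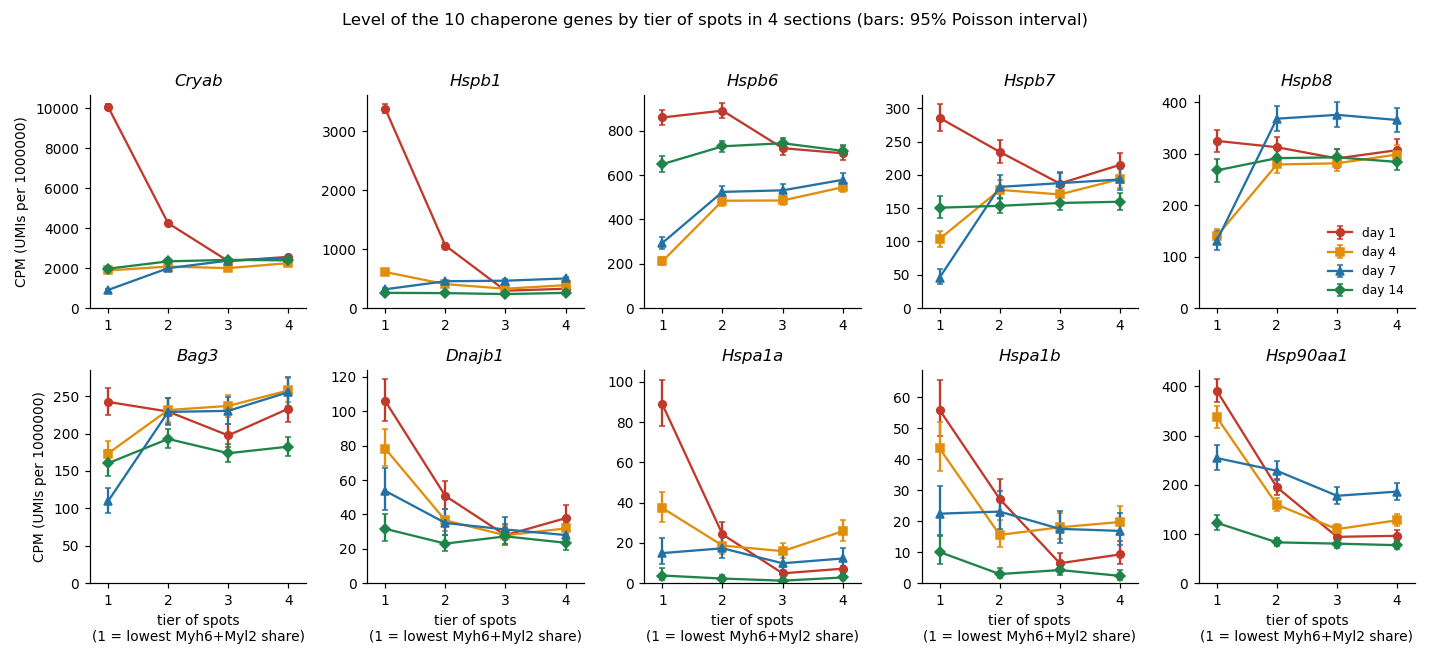
CPM (linear axis from 0) of each of the 10 genes by tier of spots, tier 1 being the lowest in Myh6 and Myl2, with 1 line a section and 95% Poisson intervals. On day 1 Cryab and Hspb1 reached 10075 and 3383 in tier 1, and Hspb8 and Bag3 were lowest in tier 1 of days 4, 7 and 14.

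Within single sections, many genes besides the members differed between the tiers. A gene was called here when the 95% interval of its ratio of lowest over highest tier lay on 1 side of 1. On day 1, 6 of the 8 members with at least 1000 UMIs were higher in the lowest tier, beside 50.1% of the 4769 genes at that depth, and 0 were lower, beside 22.5%. On day 4 3 were higher and 5 lower, beside 61.8% and 22.6% of all genes. On day 7 2 were higher and 6 lower, beside 50.6% and 22.3%, and on day 14 1 was higher and 2 lower, beside 35.1% and 13.8%. Hspa1a and Hspa1b, below that depth, were both higher on days 1 and 4, and Hspa1b also on day 14, from 21 against 10 UMIs. The shares above do not cover genes of their depth, for which no share was taken. Over days 4 and 7 the members were on the lower side more often than all genes, though no test of the members as a group was made.

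Set against cardiomyocyte mRNA in place of all mRNA, the members measured more in the lowest tier, as did most genes. Per 1000 UMIs of the 14 cardiomyocyte genes, Cryab measured 219 in the lowest and 32.6 in the highest tier of day 1, 103 and 32.6 on day 4, 47.1 and 33.1 on day 7, and 36.3 and 32.9 on day 14. Its level per cardiomyocyte UMI in the highest tier was thus nearly the same in the 4 sections. For Hspb1 the same pairs were 73.6 and 4.16, 33.4 and 5.63, 16.6 and 6.63, and 4.74 and 3.53. The ratio was 17.7 on day 1 and 5.92, 2.50 and 1.34 on days 4, 7 and 14. For Bag3 they were 5.27 and 2.97, 9.47 and 3.74, 5.72 and 3.38, and 2.96 and 2.52. On this scale 8 of 8 members were higher on day 1, beside 79.0% of all genes, 8 on day 4 beside 92.9%, 7 on day 7 beside 93.8% and 8 on day 14 beside 69.0%. The members were thus called more often than all genes on days 1 and 14, and about as often on days 4 and 7. With most genes higher too and no test of the members as a group, the scale sets nothing apart about them. The exception on day 7 was Hspb7, at 2.38 and 2.55 per 1000 (log2 -0.10, interval -0.49 to 0.27). In the lowest tier of day 7 the cardiomyocyte list also counts mRNA of skeletal muscle, which uses Ckm, Mb and Cox6a2. The list summed to 18070 CPM in bin 1 of day 7 and to 4267 in bin 1 of day 4. It divides the day 7 values of every member on this scale, and the part of skeletal muscle in them was not tested.

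**Figure D3:**
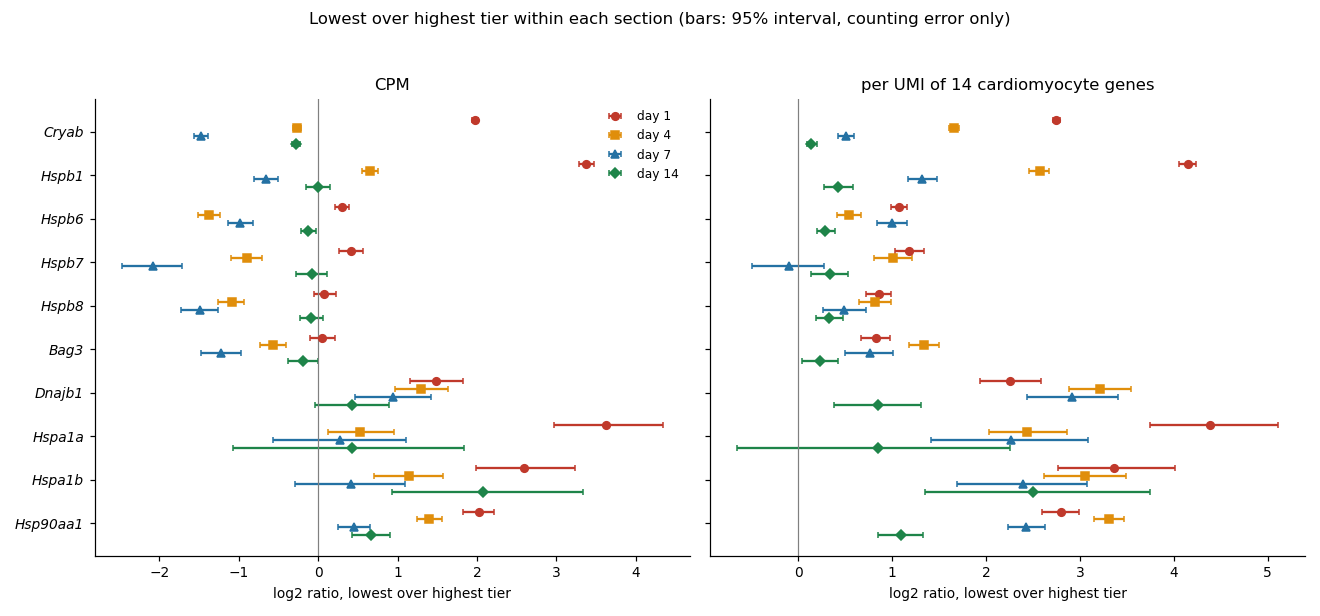
Log2 ratio of the lowest over the highest tier for each gene and section, in CPM (left) and per UMI of 14 cardiomyocyte genes (right), with 95% intervals of counting error. On the left Cryab ran from 1.98 on day 1 to -1.47 on day 7, and on the right every point but that of Hspb7 on day 7 (-0.10) lay above 0.

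A fit across the 4 sections asked which differences between tiers were shared by the days. UMIs were summed per section and tier, and edgeR's quasi-likelihood test with the section as a block was run over the 4769 genes with at least 1000 UMIs, with Benjamini-Hochberg adjustment. TMM, its scaling, sets the median gene near 0 (0.05 for lowest against highest tier), so these values stand lower than the ratios of CPM. Of the 10 members 8 could be tested. Of these, 2 were higher in the lowest than in the highest tier, beside 35.2% of all genes, and 4 were lower, beside 32.5%. The higher ones were Dnajb1, with a log2 fold change of 0.68 (SE 0.18, edgeR adjusted p = 0.00484), and Hsp90aa1, with 0.76 (SE 0.22, edgeR adjusted p = 0.00839), each higher in 4 of 4 sections.

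The 4 genes that fell were Bag3, Hspb8, Hspb6 and Hspb7. Bag3 changed by -0.84 (SE 0.21, edgeR adjusted p = 0.00296), Hspb8 by -0.96 (SE 0.27, edgeR adjusted p = 0.00735), Hspb6 by -0.88 (SE 0.26, edgeR adjusted p = 0.00996) and Hspb7 by -0.89 (SE 0.34, edgeR adjusted p = 0.033). Each was lower in CPM in 3 of 4 sections, the exception being day 1. Cryab (-0.25, SE 0.46, edgeR adjusted p = 0.638) and Hspb1 (0.58, SE 0.55, edgeR adjusted p = 0.356) were not called. Cryab was higher in the lowest tier only on day 1 and Hspb1 lower only on day 7. Without day 1 Cryab was lower by -1.08 (edgeR adjusted p = 0.00872), and Hspb1 turned to -0.42 (edgeR adjusted p = 0.12). The median over the 8 members was -0.55.

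Several of these calls rested on single sections or on the scaling. Leaving out day 4 ended the calls of Hspb6 (-0.54), Hspb7 (-0.65) and Hspb8 (-0.70), and so did leaving out day 7 (-0.69, -0.50 and -0.67), with edgeR adjusted p from 0.0747 to 0.229. Leaving out day 1 ended that of Hsp90aa1 (0.41, edgeR adjusted p = 0.0587). A fit of only the compared tiers left Dnajb1 as the only one of the 6 calls, with edgeR adjusted p from 0.0523 to 0.0995 for the others, and one without the section block left Dnajb1, Hspb8 and Bag3. Scaled to total UMIs without TMM, where the median gene stood at 0.46, 2578 genes were higher and 940 lower in place of 1679 and 1548. Hspb6 (-0.50) and Hspb7 (-0.50) were then no longer called, and the median of the members was -0.14.

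Both HSP70 genes fell under 1000 UMIs and were tested only in a fit over the 15062 genes with at least 10. There 24.1% of all genes were higher and 20.7% lower, and neither Hspa1b (0.81, SE 0.43, edgeR adjusted p = 0.148) nor Hspa1a (0.77, SE 0.59, edgeR adjusted p = 0.323) was called, although both were higher in 4 of 4 sections. That fit called 0 members higher: Dnajb1 was at 0.42 (edgeR adjusted p = 0.0645) and Hsp90aa1 at 0.50 (edgeR adjusted p = 0.0757).

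The other comparisons of tiers asked where along the ranking these differences lay. For lowest against second tier, Hsp90aa1 (0.43, edgeR adjusted p = 0.117) and Hspb7 (-0.75, edgeR adjusted p = 0.0806) were not called. A missed threshold does not place a difference elsewhere. For second against highest tier Hspb7 was at -0.14, beside -0.1 for Hspb8 and -0.16 for Bag3, which were both called for lowest against second. Within sections, Hsp90aa1 in CPM was higher in the second than in the highest tier beyond counting error on days 1, 4 and 7. Its log2 ratios there were 1.02, 0.32 and 0.30, against 0.10 on day 14, within counting error. Second against highest tier, 0 of 8 members were called in either direction by edgeR, beside 3.33% of all genes higher and 0.189% lower, 0 had an unadjusted p under 0.05 (edgeR's smallest was 0.153, for Hsp90aa1), and DESeq2 called 0. Lowest against second tier, 1 member was higher, beside 22.6% of all genes, and 3 were lower, beside 24.9%. Dnajb1 was higher by 0.54 (SE 0.18, edgeR adjusted p = 0.0263) in 4 of 4 sections. Hspb6 (-0.79, SE 0.26, edgeR adjusted p = 0.0264, lower in 4 of 4 sections), Hspb8 (-0.85, SE 0.27, edgeR adjusted p = 0.0215) and Bag3 (-0.68, SE 0.20, edgeR adjusted p = 0.017) were lower. Leaving out day 4 or day 7 ended each of these 4 calls (Dnajb1 0.54 and 0.61, Hspb6 -0.54 and -0.67, Hspb8 -0.65 and -0.59, Bag3 -0.58 and -0.49), and leaving out day 1 ended that of Dnajb1 (0.41). Scaled to total UMIs, 2 members were higher, Dnajb1 (0.86) and Hsp90aa1 (0.75), and 0 lower.

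**Figure D4:**
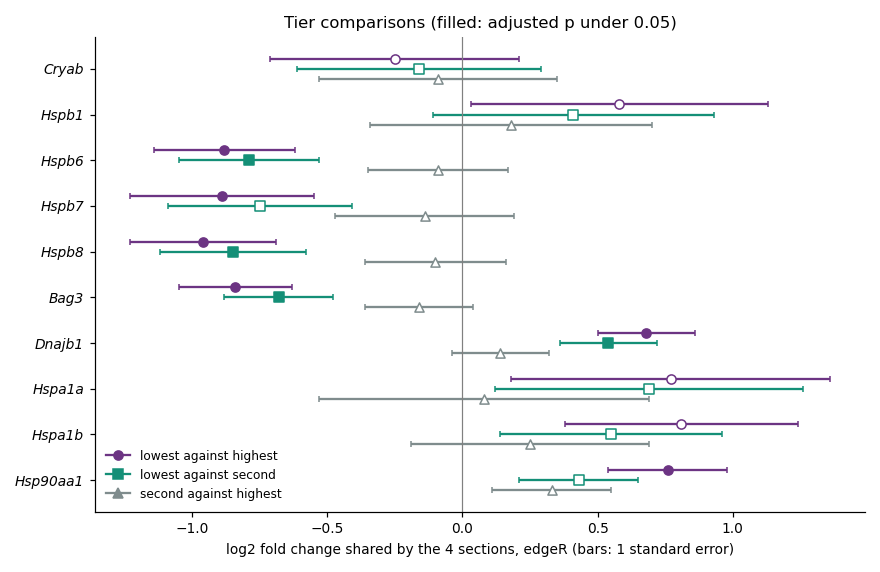
Log2 fold changes from edgeR with bars of 1 standard error for 3 comparisons of tiers, filled where the adjusted p was under 0.05, with Hspa1a and Hspa1b from the fit of genes with at least 10 UMIs. Dnajb1 and Hsp90aa1 lay to the right (0.68 and 0.76) and Hspb6, Hspb7, Hspb8 and Bag3 to the left (-0.84 to -0.96) for lowest against highest tier, and no gene was filled for second against highest.

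Over bins, the members fell into blocks. Levels were compared as log2(CPM + 1), centred within each section, over 80 bins, 20 in each of 4 sections, which share a library within a section. Hspb6, Hspb7, Hspb8 and Bag3 followed each other with Pearson's r from 0.77 to 0.87. Dnajb1, Hspa1a, Hspa1b and Hsp90aa1 followed each other with r from 0.69 to 0.88, highest for Dnajb1 and Hsp90aa1. Between those blocks r over the pooled bins was negative for every pair, from -0.12 (Hspb7 and Hspa1a) to -0.58 (Hspb6 and Dnajb1). Over the pooled bins Cryab correlated with the first block at 0.71 to 0.78 and with the second at -0.08 to 0.19. Hspb1 correlated with Cryab at 0.74, with the second block at 0.53 to 0.69 and with the first at 0.17 to 0.32. These pooled r were not set beside those of all gene pairs. Single sections did not all follow the pooled values. Within the first block, Spearman's rho over single spots was only 0.04 to 0.09 on day 1. It was 0.14 to 0.31 on day 4, 0.13 to 0.24 on day 7 and 0.18 to 0.25 on day 14. Counts a spot were low, with medians of 1 to 5 UMIs for these genes in the tiers of day 1. Over the spots of day 1, Spearman's rho of Cryab was 0.43 with Hsp90aa1 and 0.05 to 0.14 with Hspb6, Hspb7, Hspb8 and Bag3, while on day 4 it was -0.06 with Hsp90aa1 and 0.21 to 0.36 with those 4 genes. Between Hsp90aa1 and those 4 genes rho was -0.12 to -0.05 on day 4 and between -0.04 and 0.09 in the other sections.

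The genes whose bin profiles were most like each member's, among those with at least 1000 UMIs, also differed by block. For Cryab they were Nrap (r = 0.926), Xirp1 (0.917) and Csrp3 (0.910), which encode muscle proteins of the Z-disc and the intercalated disc. For Hspb1 they were Flnc (0.949), filamin C of the Z-disc, Tnfrsf12a (0.865), a receptor of the TNF family, and Slc38a2 (0.859), an amino acid transporter. For Hspb6 they were Actn2 (0.973), Tpm1 (0.966) and mt-Nd3 (0.944), for Hspb7 Actc1 (0.971), Tnnc1 (0.953) and Pkp2 (0.941), for Hspb8 Lrrc2 (0.946), Slc16a1 (0.945) and Lmod2 (0.938), and for Bag3 Tnnc1 (0.896), Actc1 (0.890) and Lrrc2 (0.874). Most of these encode sarcomere or junction proteins. The second block had other neighbours: Txn1, Rplp2 and Rps25 for Dnajb1 (0.902 to 0.900), Tuba1b, Pgam1 and Rps29 for Hsp90aa1 (0.950 to 0.933), Azin1, Rpl36 and Hsp90ab1 for Hspa1a (0.762 to 0.758), and Hsp90aa1, Hspa4 and Pcbp1 for Hspa1b (0.815 to 0.781). The lower r of the HSP70 genes goes with their low counts.

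**Figure D5:**
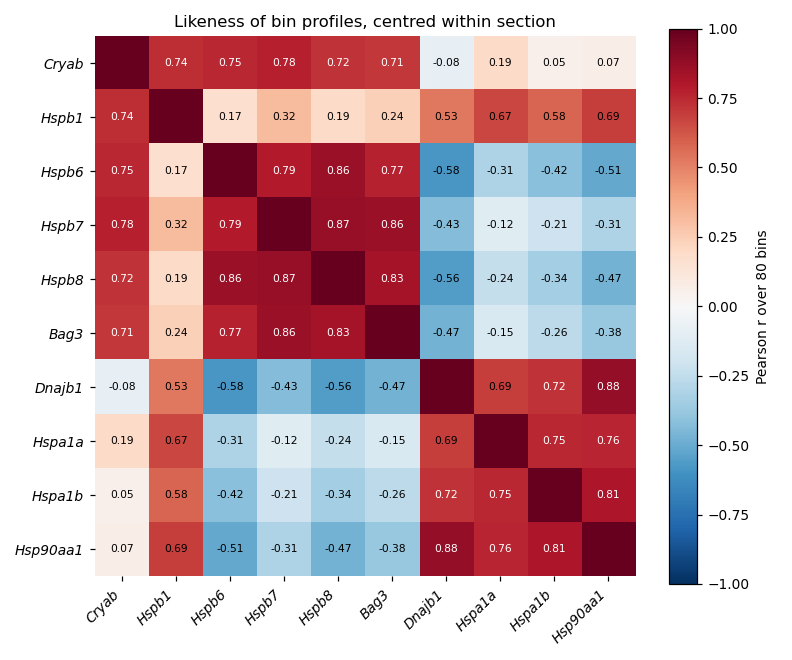
Pearson's r between the bin profiles of the 10 genes over 80 bins, centred within section, red for positive and blue for negative values. The block of Hspb6, Hspb7, Hspb8 and Bag3 (0.77 to 0.87) and the block of Dnajb1, Hspa1a, Hspa1b and Hsp90aa1 (0.69 to 0.88) were negatively related (-0.12 to -0.58).

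Other chaperones are given by list, beside 35.2% of all genes higher and 32.5% lower in the lowest than in the highest tier. Of 8 mitochondrial chaperones and proteases, 7 were lower in the lowest than in the highest tier and 0 higher, with a median of -0.91 beside 0.05 over all genes. Hspa9, the HSP70 of the mitochondrial matrix, fell by 1.04 on the log2 scale (edgeR adjusted p = 0.000432), Grpel1, its exchange factor, by 1.02 (edgeR adjusted p = 0.000275) and Dnaja3 by 1.01 (edgeR adjusted p = 0.000236), each in 4 of 4 sections. Leaving out any section kept 6 to 8 lower, and total UMI scaling left 5. The 8 subunits of TRiC, the ring that folds actin and tubulin, had 4 higher, a share not far from that of all genes, 0 lower and a median of 0.38. Cct6a (0.47), Cct5 (0.43), Cct2 (0.41) and Cct8 (0.41) were called, with edgeR adjusted p from 0.0173 to 0.0457, but 0 were called without day 1 or without day 4, 1 without day 7, and 8 with total UMI scaling.

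The other cytosolic chaperones and cochaperones went both ways. Of 32, 26 could be tested, 5 were higher and 8 lower, neither above the share of all genes, and the median was -0.16. Hsph1 (0.66, edgeR adjusted p = 0.00401), an exchange factor of HSP70, Dnaja1 (0.64, edgeR adjusted p = 0.00136), a J-domain protein, and Unc45a (0.63, edgeR adjusted p = 0.00373), the general form of the myosin chaperone, rose in 4 of 4 sections, as did Ptges3 (0.41) and Dnajb6 (0.40). Fkbp4 (-1.24, edgeR adjusted p = 0.000102), Unc45b (-1.19, edgeR adjusted p = 0.000174), the muscle form of that chaperone, and Dnaja2 (-0.74, edgeR adjusted p = 0.000302) fell in 4 of 4. In CPM, Hsph1 measured 99 in the lowest and 38.5 in the highest tier of day 1, and Unc45b 62.9 and 103.5. With total UMI scaling 11 were higher and 3 lower, so the balance of this list depends on the scaling, and without day 1, 4, 7 or 14 the counts were 3 and 11, 3 and 4, 5 and 4, and 5 and 8.

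The remaining lists were short. Of the other small heat shock genes only Hspb2, which lies head to head with Cryab on the opposite strand and shares 252 exon bases with it, had enough UMIs. It was lower by -0.55 (edgeR adjusted p = 0.0479) in 3 of 4 sections, with 260.5 CPM in the lowest tier of day 1 against 139.7 in the highest, and the call was lost without day 4, 7 or 14 and with total UMI scaling. Whether reads were counted by strand is not given in the sources used here, so how the shared bases bear on the counts of either gene is not known. Of the heat shock factor list only Hsbp1, a binding protein of heat shock factor 1, was tested (-0.07, edgeR adjusted p = 0.506). Of 7 Z-disc and autophagy partners of Bag3 and Hspb8, 1 was higher, Capzb (0.25, edgeR adjusted p = 0.043), and 2 were lower, Ttn, titin (-1.06, edgeR adjusted p = 0.00351), and Actn2, the Z-disc actinin (-1.04, edgeR adjusted p = 0.00319), with a median of -0.29. Hspb2, Actn2, Ptges3, Dnajb6 and Cct8 were named after their values were seen. The call of Capzb was lost without day 1, 4 or 7. Of the 14 cardiomyocyte genes 13 were lower and 0 higher, with a median of -1.62, so the 4 members that fell did so less than the median cardiomyocyte gene.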

How the data were processed

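The authors aligned Visium reads to mm10 with Space Ranger 1.3.0 and deposited raw UMI counts per spot and gene for 4 sections. The submitters' notes also name Seurat 4.1.1. From the deposited counts, spots with over 1% hemoglobin UMIs were removed and the rest were ranked by the Myh6 and Myl2 share and cut into 4 tiers, or 20 bins. UMIs were summed per section and tier (16 sums) and tested with edgeR 4.0.16 in R 4.3.3 (TMM, quasi-likelihood test, section as a block, 9 residual degrees of freedom), over genes with at least 1000 UMIs, with Benjamini-Hochberg adjustment and a threshold of 0.05. Tiers of a section come from 1 mouse, and the block takes out the level of each section. The p-values therefore measure how differences between tiers vary among these 4 sections, pooled over all 4 tiers. They do not measure a spread among mice of the same day. Levels carry exact Poisson intervals and ratios within a section exact binomial ones, both 95% and for counting error only. Python 3.11.15 with numpy 2.4.6, scipy 1.17.1 and pandas 2.3.3 was used for these. A spot is a small region that can hold several cells. The test was also run on simulated counts in which a small part of the genes changed in the lowest tier, alike in all sections. The data differ from that setting, with many genes called and some directions that turn between sections. The run therefore cannot vouch for the scaling or the calls here.

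Named genes were the 10 members, up to 3 risers and 3 fallers of each list that passed the threshold in the same direction in all 4 sections, and the 3 genes most like each member, with exceptions said in the text. The lists were other small heat shock proteins, other cytosolic, mitochondrial and TRiC chaperones, heat shock factors, Z-disc and autophagy partners, and cell type markers. The members and lists were chosen with earlier results of these data known. Alternatives were DESeq2 1.42.0, total UMI scaling, genes with at least 10 UMIs, no hemoglobin filter, spots with at least 1000 UMIs, no section block, ranking on 14 cardiomyocyte genes, 3 tiers in place of 4, only the compared tiers, no skeletal muscle spots, no mitochondrial transcripts, and leaving out each section. Settings that removed spots ranked and cut the remaining spots anew. Gene positions are from GENCODE on GRCm38 and promoter sequences from RefSeq.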

Additional observations from a re-analysis of the deposited data

Results flagged for a closer look

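For 4 members the log2 ratio of lowest over highest tier took opposite signs on different days, beyond counting error. Cryab was at 1.98 on day 1 and at -0.26, -1.47 and -0.28 on days 4, 7 and 14. Its lowest tier of day 4 averages over bins from 442.7 to 3473 CPM. Hspb1 was at 3.37 on day 1, 0.65 on day 4 and -0.66 on day 7. Hspb6 was at 0.30 on day 1 and at -1.37, -0.98 and -0.13 on days 4, 7 and 14, and Hspb7 at 0.41 on day 1, -0.90 on day 4 and -2.08 on day 7. With 1 mouse a day the difference between days was not tested, and day and mouse cannot be told apart.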

How the results depend on the processing

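The counts of called genes changed under several settings, and the causes were not tested. For lowest against highest tier, total UMI scaling gave 2578 genes higher and 940 lower with 2 members lower, and genes with at least 10 UMIs gave 3635 and 3119 with 0 members higher. Without the replicate block 1 member was higher and 2 lower, and in a fit of only the compared tiers 1 and 0. Leaving out a section gave 1 to 2 members higher and 1 to 5 lower.

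For second against highest tier (159 genes higher and 9 lower), the counts were 385 and 105 with DESeq2, 65 and 2 with total UMIs, 331 and 36 with at least 10 UMIs, 30 and 0 for spots of at least 1000 UMIs, 19 and 3 for only the compared tiers, 48 and 0 without skeletal muscle spots, 381 and 58 without mitochondrial transcripts, and 0 and 0 without the block or with 3 tiers. Without the hemoglobin filter 43 were lower. Leaving out a section gave 0 to 562 higher and 0 to 332 lower, the highest without day 14.

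For lowest against second tier (1076 higher and 1189 lower), total UMIs gave 2207 and 651 with 2 members higher and 0 lower, at least 10 UMIs 1786 and 1944 with 0 members higher, and no block 491 and 484 with 0 members higher and 1 lower. Spots of at least 1000 UMIs gave 0 members higher and 3 tiers in place of 4 gave 2. Leaving out a section gave 316 to 952 genes higher, 126 to 1120 lower, 0 to 1 members higher and 0 to 5 lower, the fewest genes without day 7.

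Among the members, signs turned only for values that were not called in the fit of all sections. Of the other chaperones, Bag1 (-0.36) and Bag6 (-0.33) were called and turned with total UMIs (0.05 and 0.08). Cryab turned, lowest against highest, with total UMIs (0.16), without the block (0.22), without day 4 (0.01) and without day 7 (0.24), and lowest against second likewise (0.16, 0.17, 0.03 and 0.16). Second against highest it turned with total UMIs (0.00), without the block (0.05) and without day 7 (0.08). Hspb1 turned without day 1 (-0.42, -0.14 and -0.28 for lowest against highest, second against highest and lowest against second) and with 3 tiers (-0.04). Hspb6 second against highest turned with total UMIs (0.00) and without day 4 (-0.00), and Hspb8 with 3 tiers (0.02). Leaving out a section moved Cryab from -1.08 to 0.24 (lowest against highest) and from -0.81 to 0.16 (lowest against second), with calls for the lowest values, without day 1. It moved Hspb1 up to 1.11, 0.39 and 0.71 in the order above, without day 7, and Hspb6 second against highest from -0.21, without day 1, to -0.00. All 24 member tests kept side and direction without the hemoglobin filter, without mitochondrial transcripts and without day 14. The labels carry no replicate numbers, so the block is the section itself. Depth limits Hspa1a and Hspa1b most, with 37 and 65 UMIs on day 14.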
